A study of Mus musculus with 16 samples.

Results

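The comparison described here is the upper dose step in retinas without Nxnl1, from 2500 to 5000 lux of light. Its members are the 5 arrays whose sample titles name Nxnl1-/- and one of these doses, 2 at 5000 lux and 3 at 2500 lux, out of 16 arrays in the series. Beside them the series holds 3 Nxnl1-/- arrays at 50 lux, and Nxnl1+/+ arrays at 50 lux (2 arrays), 2500 lux (3 arrays) and 5000 lux (3 arrays). All mice were BALB/c, an albino strain, aged 11-16 weeks and raised in 50 lux, with as many males as females. Each mouse sat alone in a cage, was kept dark for 16 h, met white fluorescent light for 1 h, and went back to the dark for 24 h before the neural retina was freed of pigment epithelium and RNA was taken. The labels give the same protocol for the 50 lux groups. The labels do not say whether an array held 1 animal or a pool, which part of Nxnl1 was removed, or why a group has 2 arrays. P-values therefore measure the spread between arrays that the titles call biological replicates. Below, KO stands for Nxnl1-/- and WT for Nxnl1+/+.

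Nxnl1 encodes rod-derived cone viability factor, a protein related to thioredoxin that rods make and that helps cones to survive. Bright light damages photoreceptors of albino retinas, and the surrounding Müller glia answer with a reactive state in which injury cytokines, acute-phase proteins and interferon-stimulated genes are switched on while photoreceptor transcripts decline. The step between the doses asks which injury genes were lower and which photoreceptor genes were higher after the larger dose than after the smaller one.

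Values are log2 of the deposited GCRMA intensities. A probe set was tested if it lay above log2 4 on at least 2 of the 16 arrays, which 23320 of 45037 did. The brightest tested probe set stood for each of 10916 genes, and a gene passed at a Benjamini-Hochberg adjusted p below 0.05 in a limma fit to all 16 arrays. Groups are said not to overlap when every array of one lay above every array of the other. Nxnl1 itself read 2.21 and 2.92 on the KO 5000 lux arrays and 2.86, 2.24 and 2.24 on the KO 2500 lux arrays, below log2 4 on all 5, against 5.64 to 7.61 on the 8 WT arrays. Retinal markers were present throughout, with rod transducin Gnat1 between 13.94 and 14.20 on the 5 arrays. Of 12 listed neutrophil and leukocyte genes 11 have a probe set and 0 reached log2 4 on enough arrays to be tested. Among microglial markers on the 5 arrays, Aif1 read 2.60 to 2.78, near the lowest value, and was not tested. Cx3cr1 read 3.94 to 4.39, close to log2 4, and Csf1r read 5.76 to 6.96.

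The KO 5000 lux arrays did not resemble each other as closely as the KO 2500 lux arrays did. Replicates 1 and 2 at 5000 lux correlated at 0.968 over the tested probe sets, whereas the 3 arrays at 2500 lux correlated with each other at 0.987 to 0.995. Replicate 1 correlated at 0.983 to 0.986 with the 2500 lux arrays and replicate 2 at 0.965 to 0.972. Crystallins of the lens were high on replicate 2 of each dose: Cryaa read 4.60 and 10.07 at 5000 lux, against 6.11, 11.51 and 5.65 at 2500 lux. The sexes were unevenly spread as well. Among the 5 arrays, 3 had Xist signal alone (replicate 1 at 5000 lux and replicates 2 and 3 at 2500 lux), 1 had Y-linked signal alone (replicate 1 at 2500 lux), and 1 had both (replicate 2 at 5000 lux, with Xist at 9.80 and Eif2s3y at 9.99). Over the series 10 of the 16 arrays had both signals, 5 Xist alone and 1 Y-linked signal alone. Whether lens tissue or sex took part in the differences below was not tested.

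Of the 23320 probe sets, 18 passed in the KO dose step (0.0772%). They belong to 16 genes, 15 with probe sets that fell (17 probe sets, 0.0729% of all) and 1, Glb1l2, with a probe set that rose (0.00429%). Judged by the brightest probe set, 13 genes passed as lower (0.119% of 10916) and 0 as higher. Ednrb, H2-D1 and Glb1l2 passed through dimmer probe sets alone. Among the genes with probe sets that fell were injury, cytokine and stress genes: the chemokine Ccl2, the enkephalin precursor Penk, heme oxygenase Hmox1, the TWEAK receptor Tnfrsf12a, the endothelin receptor Ednrb and the growth regulator Myc. An unadjusted p below 0.05 was found for 2952 probe sets, the 18 included. Of the 18, 5 were above log2 4 on the 3 KO 2500 lux arrays alone (Aldh1a3, Ifitm1, Myc and both Hmga2 probe sets), and the dimmest Ednrb probe set on 1 other array. These 6 passed the filter only through the group where they were high, so their calls are no support for the count. For all 18 the 2 arrays at 5000 lux did not overlap the 3 at 2500 lux. The same arrays chose the 18, so this describes them and is no support. Over all 10916 genes, 18.6% had groups that did not overlap and were lower at 5000 lux, and 15% were higher. The count of 18 depended on single arrays. It was 103 without KO 5000 lux replicate 1, with 15 of the 18 among them, and 0 without KO 5000 lux replicate 2, where 1891 probe sets still had an unadjusted p below 0.05. It was 7 without KO 2500 lux replicate 2 and 6 without KO 2500 lux replicate 3. A fit to the 5 arrays alone gave 0 (2969 at an unadjusted p below 0.05), and array weights left 1, Penk. The direction of the 18 was the same in each setting that could test them. With groups that did not overlap, leaving out or weighting arrays could not have reversed it, so this is no support.

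**Figure D1:**
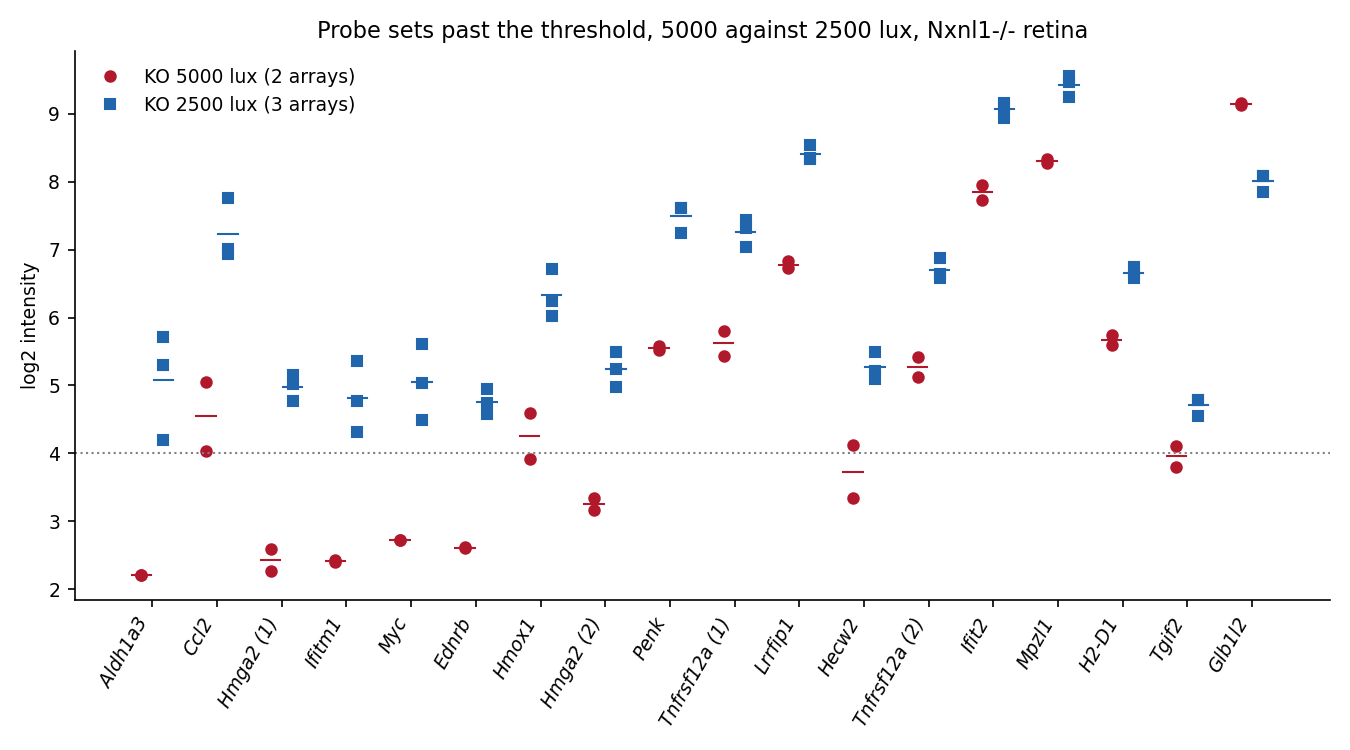
Log2 intensity of the 18 probe sets that passed between 5000 and 2500 lux in Nxnl1-/- retina, with 1 point for each array and a bar at the group mean; the dotted line marks log2 4, and (1) and (2) are different probe sets of 1 gene. In every column the 2 red points at 5000 lux lie apart from the 3 blue squares at 2500 lux, above them for Glb1l2 and below them for the other 17.

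Among secreted factors and their receptors, Ccl2, which draws monocytes into tissue, read 4.04 and 5.05 at 5000 lux, against 7.01, 6.94 and 7.76 at 2500 lux. Even the higher array at 5000 lux lay well under all 3 at 2500 lux, a log2 change of -2.69 (SE 0.36, 6.44-fold lower, limma adjusted p = 0.016). Penk encodes the precursor of the enkephalin neuropeptides. It read 5.58 and 5.53 at 5000 lux, against 7.25, 7.61 and 7.62 at 2500 lux. Both groups were tight, and the change was -1.94 (SE 0.22, 3.84-fold lower, limma adjusted p = 0.013), the smallest p of the comparison.

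Tnfrsf12a is the receptor of the cytokine TWEAK and is induced in injured tissue. Its brighter probe set read 5.81 and 5.43 at 5000 lux, against 7.31, 7.44 and 7.04 at 2500 lux, and fell by 1.64 on the log2 scale (SE 0.20, limma adjusted p = 0.013). The second probe set gave -1.42 (SE 0.17, limma adjusted p = 0.013), so both probe sets moved alike. Ednrb, the type B endothelin receptor, is found on Müller glia. Its dimmest probe set read 2.63 and 2.60 at 5000 lux, against 4.74, 4.58 and 4.95 at 2500 lux, at least 1.69-fold lower because the 5000 lux arrays lay under log2 4 (limma adjusted p = 0.014). That probe set needed the KO 2500 lux arrays to enter the test, so its p-value is no support. The brightest Ednrb probe set read 8.06 and 8.23 at 5000 lux, against 9.59, 9.91 and 9.86 at 2500 lux. It showed the same order of arrays with a change of -1.64 (SE 0.29) but missed the threshold (limma adjusted p = 0.063), as did the remaining one at -1.54.

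Hmox1, the enzyme that degrades heme and is induced by oxidative stress, read 4.60 and 3.92 at 5000 lux, against 6.02, 6.25 and 6.72 at 2500 lux. The change was -2.07 (SE 0.29, 4.19-fold lower, limma adjusted p = 0.016). Aldh1a3, which makes retinoic acid, lay at 2.21 and 2.22 at 5000 lux and at 4.20, 5.31 and 5.72 at 2500 lux, at least 2.11-fold lower (limma adjusted p = 0.016). Both arrays at the larger dose were thus near the lowest value on the arrays. Aldh1a3 entered the test through the KO 2500 lux arrays alone, so its p-value is no support. Its other probe sets were not tested and read at most 2.69 and 2.21 on any array.

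Myc, a transcription factor of growth and proliferation, read 2.73 on both arrays at 5000 lux, against 4.50, 5.61 and 5.03 at 2500 lux. That is at least 2.07-fold lower (limma adjusted p = 0.016). Hmga2, an architectural chromatin protein, read 3.16 and 3.35 at 5000 lux, against 4.98, 5.49 and 5.24 at 2500 lux, at least 2.36-fold lower (limma adjusted p = 0.016); its second probe set fell at least 1.98-fold. Both genes were above log2 4 at 2500 lux and under it at 5000 lux. They entered the test through the KO 2500 lux arrays alone, so their p-values are no support. Tgif2, a homeobox corepressor, fell by 0.75 (SE 0.12, limma adjusted p = 0.045), the smallest change among the genes that passed.

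Interferon and antigen genes were represented by Ifit2, Ifitm1 and H2-D1. Ifit2, an interferon-induced antiviral protein, read 7.95 and 7.73 at 5000 lux, against 9.16, 8.94 and 9.11 at 2500 lux, a change of -1.23 (SE 0.20, 2.34-fold lower, limma adjusted p = 0.036). Ifitm1, an interferon-induced membrane protein, read 2.44 and 2.40 at 5000 lux, against 5.36, 4.78 and 4.32 at 2500 lux, at least 1.76-fold lower (limma adjusted p = 0.016). Ifitm1 entered the test through the KO 2500 lux arrays alone, so its p-value is no support. H2-D1, a heavy chain of MHC class I, passed with 1 of its 7 tested probe sets. That one changed by -0.98 (SE 0.15, limma adjusted p = 0.031), and the other 6 lay between -0.49 and -0.90 and did not pass; class I genes are close in sequence, so which of them a probe set reads is uncertain.

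The remaining genes were of mixed kinds. Mpzl1, a cell-surface glycoprotein, read 8.33 and 8.28 at 5000 lux, against 9.47, 9.56 and 9.24 at 2500 lux, and fell 2.17-fold. Lrrfip1, a nucleic acid-binding protein, read 6.72 and 6.83 at 5000 lux, against 8.35, 8.53 and 8.33 at 2500 lux, and fell 3.09-fold, while a dimmer probe set of the same gene gave 0.02 with overlapping groups. Hecw2, a ubiquitin ligase, read 4.12 and 3.35 at 5000 lux, against 5.22, 5.49 and 5.10 at 2500 lux. It fell 2.90-fold, a size that rests in part on an array under log2 4. Glb1l2, a relative of beta-galactosidase, was the single gene with a probe set that passed as higher. It read 9.13 and 9.16 at 5000 lux, against 8.08, 8.08 and 7.85 at 2500 lux, a change of 1.14 (SE 0.18, 2.20-fold higher, limma adjusted p = 0.031), and its brightest probe set gave 1.04 (limma adjusted p = 0.064).

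Set beside the 50 lux arrays, the larger dose lay nearer to the baseline than the smaller one for these genes. The comparisons with 50 lux share the KO 2500 and 5000 lux arrays with the dose step, so their values stand side by side only. At 2500 lux 17 of the 18 probe sets were higher than at 50 lux with an adjusted p below 0.05 (8.60% of all probe sets were), and Glb1l2 was lower. At 5000 lux 8 of the 18 were higher than at 50 lux, against 5.54% of all. The Glb1l2 probe set that passed no longer counted among the 5.88% that were lower. The brightest Glb1l2 probe set still did (-0.69, limma adjusted p = 0.034). Ccl2 stood 3.17 above its 50 lux level at 2500 lux and 0.48 above it at 5000 lux (limma adjusted p = 0.40). Aldh1a3 stood 2.86 above it at 2500 lux and 0.00 at 5000 lux. Hmox1 stayed above its 50 lux level at both doses, by 3.53 at 2500 lux and 1.46 at 5000 lux (limma adjusted p = 1.2e-06 and 0.0070). Penk was 1.23 above its 50 lux level at 2500 lux and 0.71 below it at 5000 lux, the last not passing (limma adjusted p = 0.054). The Glb1l2 probe set that passed was 1.65 below its 50 lux level at 2500 lux and 0.51 below it at 5000 lux (limma adjusted p = 0.078 for the last).

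**Figure D2:**
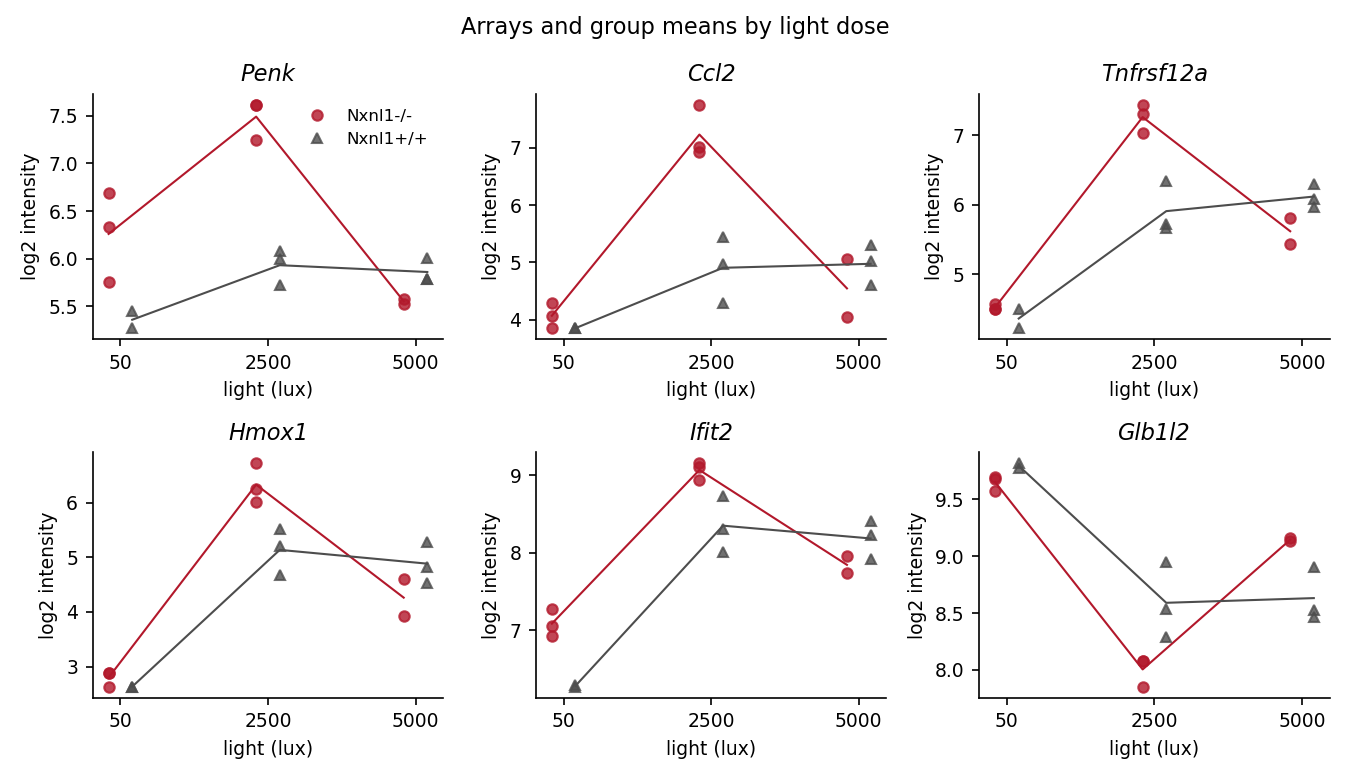
Log2 intensity of 6 genes at 50, 2500 and 5000 lux, with 1 point for each array and a line through the group means, in Nxnl1-/- (red circles) and Nxnl1+/+ retina (grey triangles). The red line peaks at 2500 lux for Penk, Ccl2, Tnfrsf12a, Hmox1 and Ifit2 and is lowest there for Glb1l2, while the grey line is close to level between 2500 and 5000 lux.

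The same dose step in WT retina gave no such calls. No probe set passed there in limma (0 of 23320, with 1917 at an unadjusted p below 0.05 and a smallest adjusted p of 0.381), and 2 passed when dim probe sets were kept. The smallest p in WT belonged to Setd5 (-1.52) and Ddx41 (0.57), both at that adjusted p. Single WT arrays moved this count too: it was 30 without WT 5000 lux replicate 1 and 1 without WT 2500 lux replicate 3. Of the 18 probe sets, 2 had an unadjusted p below 0.05 in the WT step. Penk read 5.79, 5.78 and 6.01 at 5000 lux in WT, against 5.72, 5.99 and 6.08 at 2500 lux, and Ccl2 read 5.02, 4.60 and 5.30 against 4.29, 4.98 and 5.45. The groups overlapped for both.

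The difference between the KO step and the WT step was tested as an interaction, and 2 probe sets passed (0.00858% of 23320; 1131 had an unadjusted p below 0.05). These were the second Tnfrsf12a probe set, with a step of -1.42 in KO, 0.45 in WT and a difference of -1.87 (SE 0.23, limma adjusted p = 0.039), and the dimmest Ednrb probe set, with -2.14 in KO, 0.65 in WT and a difference of -2.79 (SE 0.37, limma adjusted p = 0.039). Next by p, and not passing, were the brighter Tnfrsf12a probe set (limma adjusted p = 0.085), Penk (0.14) and H2-D1 (0.21). The Ednrb probe set that passed had entered the test only through the KO 2500 lux arrays. Its KO 5000 and WT 2500 lux arrays all lay under log2 4. The brightest Ednrb probe set did not pass the interaction (limma adjusted p = 0.33), nor did the remaining one (0.21). The count ran from 0 to 28 when 1 array was left out. It was 0 without either KO 5000 lux array, KO 2500 lux replicate 1 or 3, WT 5000 lux replicate 1, or WT 2500 lux replicate 1 or 2, 1 without KO 2500 lux replicate 2, and 28 without WT 2500 lux replicate 3. All 18 had an unadjusted interaction p below 0.05, but their KO arrays are those that chose them, so this describes them and is not a separate test. The comparisons of KO with WT at each dose use those same KO arrays, so their counts also describe the 18 and are no support. At 2500 lux 10 of the 18 were higher in KO than in WT (0.0815% of all probe sets were, and 0.0943% differed in either direction). At 5000 lux limma called 0 of the 18 between KO and WT (0.00429% of all), 6 had an unadjusted p below 0.05, and 17 of 18 had a lower mean in KO than in WT. For each of the 17 probe sets that fell, the KO mean thus stood above the WT mean at 2500 lux and below it at 5000 lux, and for Glb1l2 it was the other way round.

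Lists of genes with a known role are described by their counts and medians. As background, 18.6% of all 10916 genes had KO 5000 lux arrays wholly below the KO 2500 lux arrays, 15% wholly above, and the median step over all genes was -0.02. The step was below 0 for 53.8% of all genes and above 0 for 46.2%. In WT 7.57% of genes lay wholly lower at 5000 lux and 3.45% wholly higher. Of the glial reactivity and injury cytokine list, 23 of 25 genes were tested. Their step was below 0 in 22 of 23, groups did not overlap in 17, all lower at 5000 lux, and the median was -0.70, against 0.02 for the WT step. One member, Tnfrsf12a, passed. The brightest Ednrb probe set, given above, came next by p without passing. Cd44, an adhesion receptor of reactive glia, read 9.26 and 9.49 at 5000 lux, against 10.23, 10.64 and 10.50 at 2500 lux (-1.08, SE 0.25, limma adjusted p = 0.13) and did not pass. Lcn2, an acute-phase iron-carrier protein, read 9.37 and 10.13 at 5000 lux, against 11.64, 11.08 and 11.35 at 2500 lux (-1.61, SE 0.40, limma adjusted p = 0.16). Ceruloplasmin Cp changed by -0.67 (limma adjusted p = 0.17).

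These genes remained far above their 50 lux level at both doses, Lcn2 by 6.36 at 2500 lux and 4.75 at 5000 lux. At each bright dose 22 of the 23 glial genes were higher than at 50 lux in KO with an adjusted p below 0.05, where 8.87% of all genes were at 2500 lux and 4.60% at 5000 lux. Gfap, the glial filament protein used as the usual mark of gliosis, was named after its values were seen because it differed from the rest. It read 7.96 and 8.41 at 5000 lux, against 7.54, 8.40 and 8.19 at 2500 lux, with overlapping groups and a step of 0.14 (SE 0.35, limma adjusted p = 0.90).

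**Figure D3:**
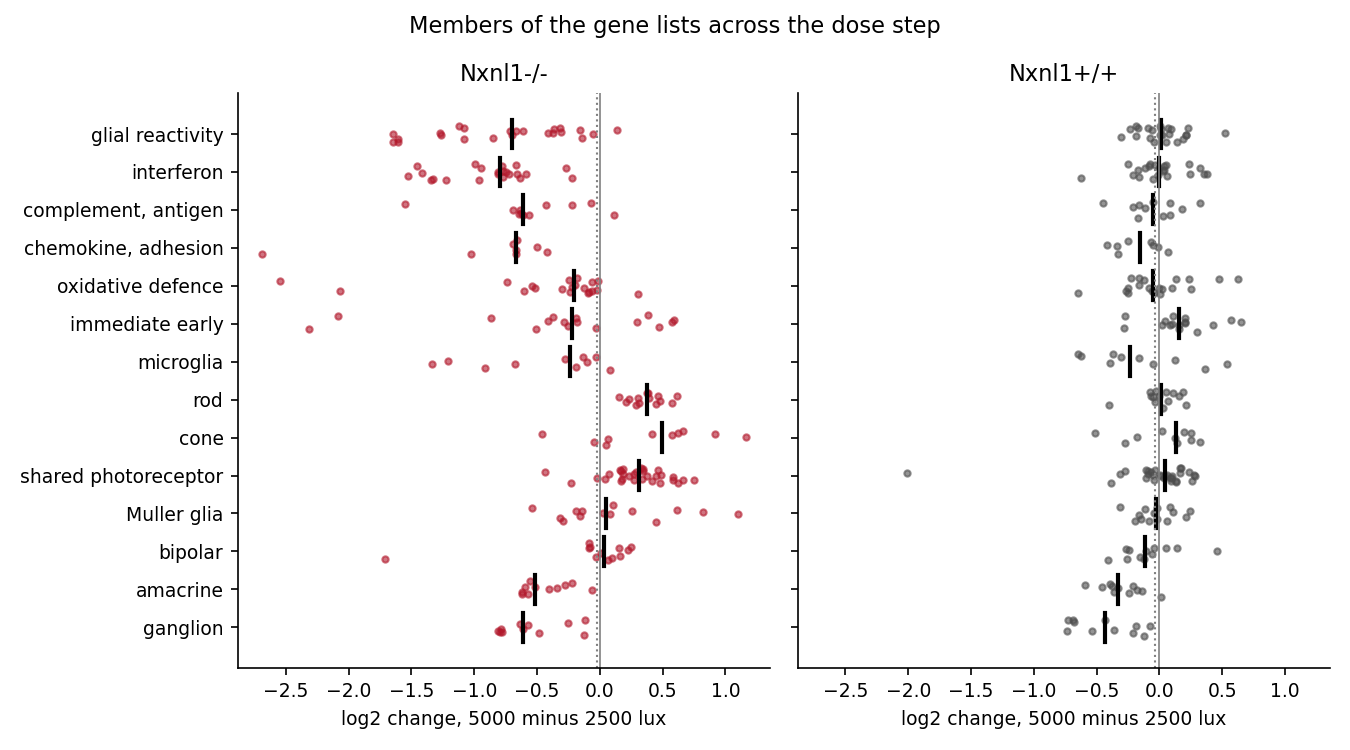
Log2 change between 5000 and 2500 lux of the tested members of 14 gene lists, in Nxnl1-/- (left) and Nxnl1+/+ retina (right), with 1 point for each gene, a black bar at the list median and a dotted line at the median of all genes. In Nxnl1-/- retina the injury and immune lists lie left of 0 and the rod, cone and shared photoreceptor lists right of it, with medians of -0.70, -0.79 and 0.38 for the glial, interferon and rod lists.

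The interferon response list was lower throughout. All 22 tested members of 25 had a step below 0, and in all 22 the KO 5000 lux arrays lay wholly under the KO 2500 lux arrays (18.6% of all genes did). The median step was -0.79 in KO and -0.0041 in WT, and 19 of the 22 had an unadjusted p below 0.05, against 13.7% of all genes. Ifit2 alone passed. Oasl2, of the oligoadenylate synthetase family, read 5.48 and 5.98 at 5000 lux, against 7.04, 6.96 and 7.21 at 2500 lux (-1.35, SE 0.31, limma adjusted p = 0.14). Ifit1 changed by -1.52 (limma adjusted p = 0.14), Ddx58, the RNA sensor RIG-I, by -1.42 (0.14) and Rsad2, the antiviral enzyme viperin, by -0.95 (0.18). The median was -0.76 with KO 5000 lux replicate 2 alone set against the 2500 lux arrays, and -0.93 with replicate 1 alone.

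Promoters are shown for Ifit2 and Oasl2, the interferon genes with the smallest p, and for Cngb1 and Prdm1, the photoreceptor genes with the smallest p. Each sequence is the 250 bases before the transcription start in RefSeq (mouse build GRCm38.p6), read along the gene's strand. Capitals mark matches, on either strand, to 6 motifs: the interferon-stimulated response element, the STAT motif TTCNNNGAA, the AP-1 motif TGANTCA, the CRX motif TAATCC, the cyclic AMP response element TGACGTCA and the E-box CACGTG.
Ifit2 (chr19:34550444-34550693, plus strand): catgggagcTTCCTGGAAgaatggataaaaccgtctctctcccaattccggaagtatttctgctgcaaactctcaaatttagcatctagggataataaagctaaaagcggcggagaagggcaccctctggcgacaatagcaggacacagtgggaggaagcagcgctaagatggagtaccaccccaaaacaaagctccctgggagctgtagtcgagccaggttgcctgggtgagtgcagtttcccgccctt
Oasl2 (chr5:114896684-114896933, plus strand): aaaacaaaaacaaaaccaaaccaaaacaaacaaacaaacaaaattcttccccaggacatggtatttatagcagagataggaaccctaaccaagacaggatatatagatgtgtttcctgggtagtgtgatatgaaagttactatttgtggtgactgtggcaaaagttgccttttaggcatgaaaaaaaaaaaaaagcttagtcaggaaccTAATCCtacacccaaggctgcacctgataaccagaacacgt
Cngb1 (chr8:95306586-95306835, minus strand): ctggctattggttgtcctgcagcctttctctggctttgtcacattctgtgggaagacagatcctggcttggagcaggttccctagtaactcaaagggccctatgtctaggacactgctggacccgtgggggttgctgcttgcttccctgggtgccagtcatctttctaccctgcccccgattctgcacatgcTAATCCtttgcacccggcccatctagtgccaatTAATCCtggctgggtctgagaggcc
Prdm1 (chr10:44458749-44458998, minus strand): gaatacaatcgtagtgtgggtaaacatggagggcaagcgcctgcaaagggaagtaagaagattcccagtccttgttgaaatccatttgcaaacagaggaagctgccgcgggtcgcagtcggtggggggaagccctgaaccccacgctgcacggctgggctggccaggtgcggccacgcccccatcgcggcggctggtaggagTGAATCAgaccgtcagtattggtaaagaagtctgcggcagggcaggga
The Ifit2 window held a STAT match 241 bases before the start, and the window of a second RefSeq start of Ifit2 held none of the 6. The Cngb1 window held CRX matches 58 and 25 bases before the start, the Oasl2 window a CRX match at 41 bases and the Prdm1 window an AP-1 match at 48 bases. Over the lists, the interferon element was in 7 of 20 interferon promoters (35.0%), against 3.04% of all 27025 promoters, and the CRX motif was in 5 of 10 rod promoters (50.0%) and 7 of 23 shared photoreceptor promoters (30.4%), against 6.38% of all. CRX was in 1 of 6 cone promoters (16.7%), 3 of 20 interferon promoters and 2 of 10 promoters of genes that fell. The AP-1 motif was in 6 of 20 interferon promoters (30.0%) and 2 of 10 rod promoters, against 6.87% of all, and the STAT motif in 4 of 20 interferon promoters and 3 of 20 glial promoters, against 7.18% of all. The interferon element was in 0 of 10 promoters of genes that fell and 0 of 20 glial promoters, and the cyclic AMP element and the E-box were in 0 promoters of these 6 sets. A match of letters is a description of the window and not a measured site.

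Genes of antigen presentation and complement followed with smaller changes. Of 11 tested members of 20, 10 had a step below 0, 8 had groups that did not overlap, and the median was -0.62. In limma 0 of the 11 passed with their brightest probe set, while 7 had an unadjusted p below 0.05. Tapbp, which loads peptides onto class I, read 9.99 and 9.94 at 5000 lux, against 10.67, 10.49 and 10.64 at 2500 lux (-0.64, SE 0.16, limma adjusted p = 0.16). B2m, the light chain of class I, changed by -0.69 (limma adjusted p = 0.25) and the peptide transporter Tap1 by -1.55 (0.34). The complement genes C1qa and C1qb, named after their values were seen, overlapped between the doses, with steps of -0.07 and -0.22.

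All 8 tested chemokine, cytokine and adhesion genes of 18 lay wholly lower at 5000 lux, with a median of -0.67 in KO and -0.16 in WT. Beside Ccl2, Vcam1, which holds leukocytes on vessel walls, read 8.25 and 7.81 at 5000 lux, against 8.88, 9.04 and 9.23 at 2500 lux (-1.02, SE 0.21, limma adjusted p = 0.095). The alarmin Il33 changed by -0.67 (limma adjusted p = 0.24), and Ccl12, a second monocyte attractant, by -0.50 (0.31). Microglia and macrophage markers were less uniform: 9 of 10 tested members of 18 were below 0, 4 did not overlap, and the median was -0.23 in both genotypes. In limma 0 of these 10 passed, and 3 had an unadjusted p below 0.05. The lysozyme Lyz2 (-1.34, limma adjusted p = 0.11), the endotoxin co-receptor Cd14 (-1.21, 0.17), the lectin Lgals3 (-0.92, 0.34) and the lysosomal Cd68 (-0.67, 0.40) had the smallest p. The list moved with KO 5000 lux replicate 2, where its median was -0.67, against -0.09 on replicate 1.

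In the oxidative stress and metallothionein list 19 of 20 tested members of 24 were below 0, with 7 wholly lower and 1 wholly higher and a median of -0.21, which was -0.05 on KO 5000 lux replicate 1 and -0.41 on replicate 2. Hmox1 passed. The cystine transporter Slc7a11 read 3.87 and 3.77 at 5000 lux, against 4.43, 4.77 and 4.48 at 2500 lux (-0.74, SE 0.13, limma adjusted p = 0.054), and it too entered the test through the KO 2500 lux arrays alone. Gpx3, a glutathione peroxidase, read 4.63 and 3.43 at 5000 lux, against 6.84, 6.74 and 6.13 at 2500 lux (-2.54, SE 0.50, limma adjusted p = 0.081), but its 3 KO arrays at 50 lux already ranged from 4.29 to 6.21. The thioredoxin reductase Txnrd1 changed by -0.52 (limma adjusted p = 0.24) and the metallothionein Mt1 by -0.60 (0.32).

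The immediate early and AP-1 list was mixed. Of 16 tested members of 20, 11 were below 0 and 5 above, 5 lay wholly lower and 3 wholly higher, and the median was -0.22, with -0.07 on KO 5000 lux replicate 1 and -0.21 on replicate 2. Myc passed; it and Fosl1 entered the test through the KO 2500 lux arrays alone. Fosl1, an AP-1 subunit, read 2.21 on both arrays at 5000 lux, against 3.83, 4.37 and 4.69 at 2500 lux (limma adjusted p = 0.054), and Ier2, an early response gene, stood on the other side with 8.90 and 8.43 at 5000 lux, against 8.40, 8.02 and 7.85 at 2500 lux (0.57, SE 0.24, limma adjusted p = 0.35). Among apoptosis and p53 genes 5 of 10 tested members of 19 were below 0 and 4 wholly lower, with a median of -0.08 (-0.27 on replicate 1 and -0.07 on replicate 2), and in limma 0 of them passed (4 at an unadjusted p below 0.05). The initiator caspase Casp8 came nearest, with 3.37 and 3.29 at 5000 lux, against 4.87, 4.45 and 4.53 at 2500 lux (limma adjusted p = 0.054). The stress genes Gadd45g (-0.59) and Gadd45b (-0.82) followed, both at a limma adjusted p of 0.29.

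Cell cycle and matrix genes were also examined. The cyclins Ccnd2 and Ccnd1, which start the cell cycle, lay wholly lower at 5000 lux, at 4.24 on both arrays against 4.83, 4.87 and 5.03 at 2500 lux for Ccnd2 (limma adjusted p = 0.054) and at 8.25 and 8.23 against 9.24, 9.38 and 9.29 for Ccnd1 (-1.06, SE 0.19, limma adjusted p = 0.063). The later cyclin Ccna2 stood 0.77 higher at 5000 lux (limma adjusted p = 0.18). Of 15 tested matrix genes of 20, 7 lay wholly lower and 2 wholly higher, with a median of -0.39, which was -0.22 on KO 5000 lux replicate 1 and -0.60 on replicate 2. The median of the 7 tested cell cycle genes of 15 was -0.34, with -0.09 on replicate 1 and -0.34 on replicate 2. The matrix protein Tgfbi, which needed the KO 2500 lux arrays to enter the test, changed by -1.96 (limma adjusted p = 0.13), tenascin Tnc by -0.98 (0.22) and the membrane protease Mmp14 by -1.01 (0.24). In limma 0 of 7 cell cycle genes and 0 of 15 matrix genes passed, with 4 and 8 at an unadjusted p below 0.05.

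Photoreceptor genes stood on the other side. All 14 tested rod phototransduction genes of 15 had a step above 0, 12 lay wholly higher at 5000 lux (15% of all genes did), and the median was 0.38 in KO and 0.01 in WT. In limma 0 of the 14 passed, and 10 had an unadjusted p below 0.05. Cngb1, the beta subunit of the rod channel, read 10.22 and 10.18 at 5000 lux, against 9.43, 9.74 and 9.59 at 2500 lux (0.61, SE 0.14, limma adjusted p = 0.14). The phosphodiesterase inhibitor subunit Pde6g read 13.53 and 13.45 at 5000 lux, against 13.02, 13.19 and 13.12 at 2500 lux (0.38, SE 0.10, limma adjusted p = 0.18). Cnga1, the channel's alpha subunit, changed by 0.46 and the transducin gamma subunit Gngt1 by 0.45. Both KO 5000 lux arrays carried this shift alike, with medians of 0.39 on replicate 1 and 0.33 on replicate 2.

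Cone genes were less even. Of 10 tested members of 13, 8 were above 0, 5 lay wholly higher, and the median was 0.50 in KO and 0.13 in WT, but it was 0.71 without KO 5000 lux replicate 2 and 0.27 without replicate 1. In limma 0 passed and 6 had an unadjusted p below 0.05. Cone arrestin Arr3, which shuts off the cone opsins, read 9.60 and 10.03 at 5000 lux, against 8.42, 8.49 and 9.04 at 2500 lux (1.16, SE 0.29, limma adjusted p = 0.15). Opn1mw, the middle-wavelength opsin, read 9.96 and 9.42 at 5000 lux, against 9.31, 8.99 and 8.90 at 2500 lux (0.62, SE 0.21, limma adjusted p = 0.27). Cone transducin Gnat2 overlapped, at 10.88 and 10.30 against 10.31, 9.97 and 9.76 (0.58, limma adjusted p = 0.27), and the potassium channel subunit Kcnv2 changed by 0.66 (0.27).

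Among 30 tested genes of 35 shared by rods and cones or acting in their development, 27 were above 0, 22 lay wholly higher and none wholly lower, with a median of 0.31 in KO and 0.04 in WT. In limma 0 of these passed, and 18 had an unadjusted p below 0.05, all higher. Prdm1, a repressor that helps set photoreceptor fate, read 7.09 and 6.85 at 5000 lux, against 6.50, 6.08 and 6.09 at 2500 lux (0.75, SE 0.18, limma adjusted p = 0.14). The retinol dehydrogenase Rdh12 read 11.83 and 11.55 at 5000 lux, against 11.08, 11.17 and 11.07 at 2500 lux (0.59, SE 0.15, limma adjusted p = 0.16). Reep6, which serves membrane traffic in rods, changed by 0.58 (limma adjusted p = 0.17) and the axoneme gene Rp1l1 by 0.48 (0.17).

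At 5000 lux many of these genes were still under their 50 lux level. Cngb1 was 1.38 below its 50 lux level at 2500 lux and 0.77 below it at 5000 lux, and Arr3 was 2.10 below at 2500 lux and 0.94 below at 5000 lux. Of the 14 rod genes, 13 were lower than at 50 lux with an adjusted p below 0.05 at 2500 lux (13.5% of all genes were) and 5 at 5000 lux (7.81% of all). Of the 30 shared genes the counts were 19 at 2500 lux and 7 at 5000 lux. In whole retina, fewer photoreceptors and less RNA in each photoreceptor cannot be told apart.

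**Figure D4:**
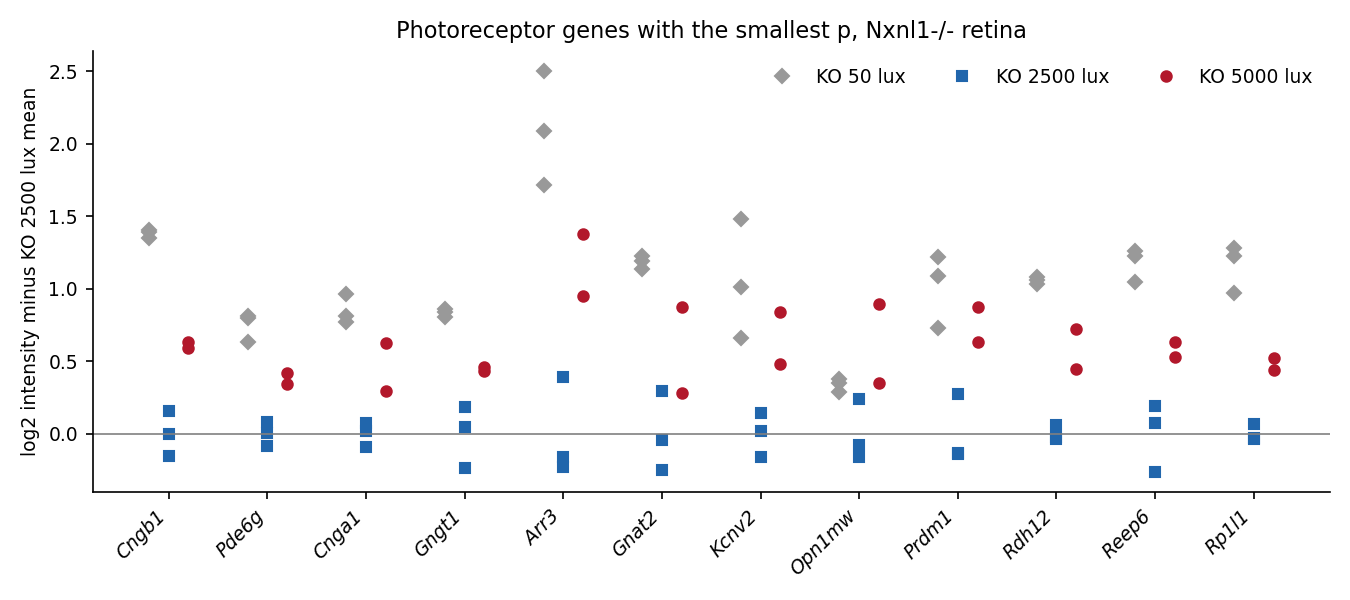
Log2 intensity of 12 photoreceptor genes in Nxnl1-/- retina at 50, 2500 and 5000 lux, relative to the gene's mean at 2500 lux, with 1 point for each array; the 4 genes with the smallest p of the rod, cone and shared lists are shown. The red points at 5000 lux lie above 0 and, except for Opn1mw, Kcnv2 and Prdm1, below all grey diamonds at 50 lux, and for Gnat2 the lower red point lies within the blue squares at 2500 lux.

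Summed over a list, the order of the arrays was plain. Mean log2 of the 23 glial genes was 8.70 and 8.91 at KO 5000 lux and 9.50, 9.59 and 9.66 at KO 2500 lux, against 8.76 to 9.09 at WT 5000 lux and 8.53 to 9.48 at WT 2500 lux. The KO 2500 lux arrays were thus the highest of the 4 groups and lay above every WT array, and the KO 5000 lux arrays lay within the range of WT. The interferon genes gave 6.17 and 6.37 at KO 5000 lux and 7.08 to 7.22 at KO 2500 lux, against 6.24 to 6.87 at WT 5000 lux and 6.26 to 7.08 at WT 2500 lux. Rod genes ran the other way, with 12.32 and 12.31 at KO 5000 lux and 11.88 to 12.04 at KO 2500 lux, against 12.08 to 12.28 at WT 5000 lux and 12.07 to 12.21 at WT 2500 lux.

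Among other neurons, the KO step was below 0 for all 11 tested ganglion cell genes of 16 (median -0.61, against -0.43 in WT) and for all 11 tested amacrine genes of 15 (median -0.52, against -0.33 in WT). These shifts came mostly with KO 5000 lux replicate 2: the ganglion median was -1.14 on replicate 2 and -0.15 on replicate 1, and the amacrine median was -0.86 on replicate 2 and -0.10 on replicate 1. Gad1, which makes GABA in amacrine cells, read 12.03 and 11.32 at 5000 lux, against 12.25, 12.30 and 12.21 at 2500 lux. The ganglion cell factor Pou4f1 read 7.83 and 7.13 at 5000 lux, against 8.27, 8.16 and 8.39 at 2500 lux. In limma 0 of either list passed, with 4 ganglion and 5 amacrine genes at an unadjusted p below 0.05. By contrast the glial, interferon and rod lists were shifted on both arrays, as given above.

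Bipolar genes had a median of 0.04 and homeostatic Müller glia genes 0.05, with 1 and 6 genes at an unadjusted p below 0.05 and in limma 0 called in either. These medians averaged arrays that lay on opposite sides of 0: the Müller median was 0.25 on KO 5000 lux replicate 1 and -0.16 on replicate 2, and the bipolar median was 0.14 on replicate 1 and -0.08 on replicate 2. Within the Müller list the water channel Aqp1 read 9.50 and 8.98 at 5000 lux, against 8.40, 8.49 and 8.34 at 2500 lux (0.82, SE 0.24, limma adjusted p = 0.20), and Abca8a, a lipid transporter, stood 0.61 higher (0.19). Trpm1, the channel of ON bipolar cells, stood apart from its list with 4.31 and 5.02 at 5000 lux, against 6.18, 6.45 and 6.49 at 2500 lux (-1.71, SE 0.50, limma adjusted p = 0.20).

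**Figure D5:**
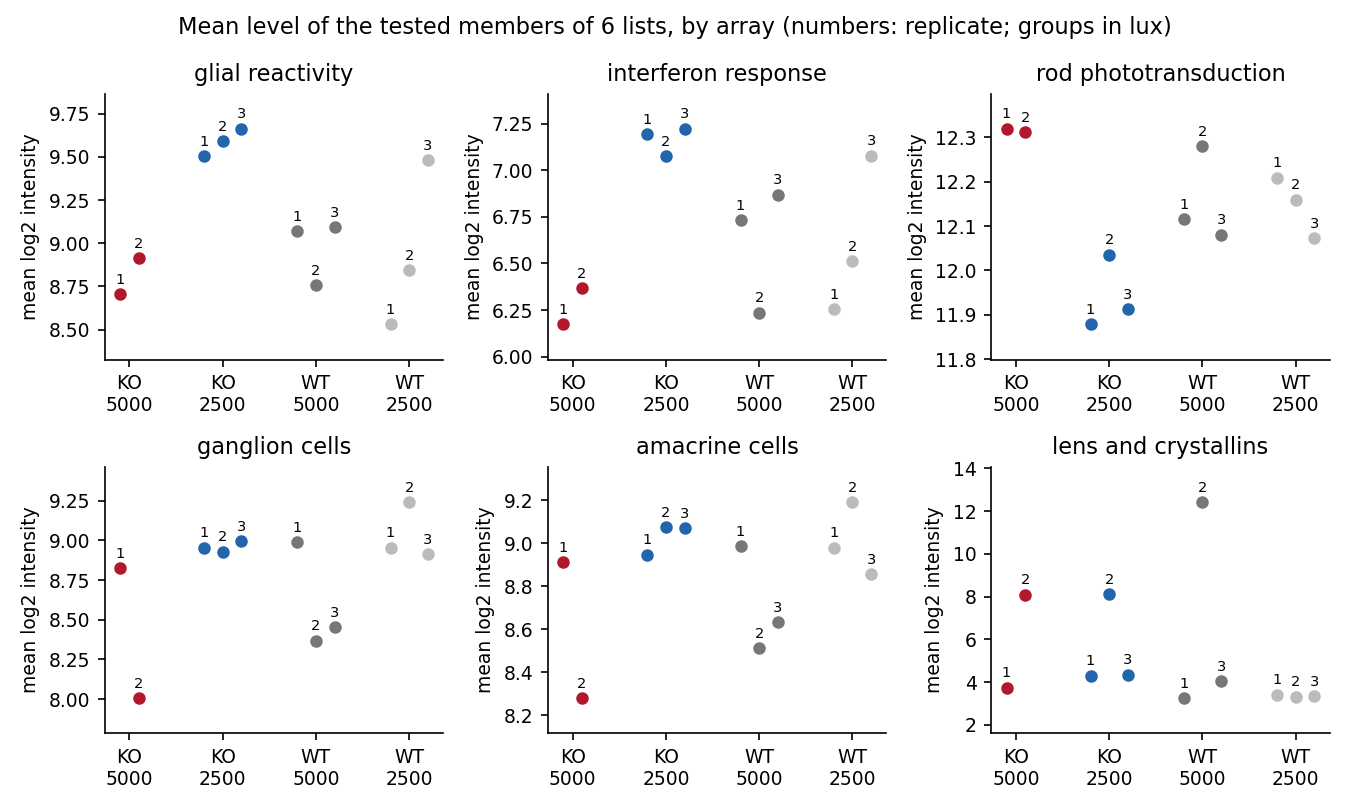
Mean log2 intensity of the tested members of 6 gene lists, with 1 point for each array numbered by replicate, at 5000 and 2500 lux in Nxnl1-/- (KO) and Nxnl1+/+ (WT) retina. Both KO 5000 lux points lie below the KO 2500 lux points for the glial and interferon lists and above them for the rod list, whereas for ganglion and amacrine genes replicate 2 at KO 5000 lux lies far under replicate 1, and crystallins are high on replicate 2 of both KO doses.

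Of the thioredoxin family, to which Nxnl1 is related, 20 of 20 listed genes were tested, 12 below 0 and 8 above, with a median of -0.03 (-0.0060 on KO 5000 lux replicate 1 and -0.23 on replicate 2). In limma 0 passed and 4 had an unadjusted p below 0.05. Nxnl2, the closest relative of Nxnl1, read 11.06 and 10.93 at 5000 lux, against 10.68, 10.56 and 10.51 at 2500 lux (0.41, SE 0.12, limma adjusted p = 0.19), so its groups did not overlap and ran with the rod genes. The selenoprotein reductase Txnrd3 read 4.82 and 4.73 at 5000 lux, against 5.82, 5.86 and 6.21 at 2500 lux (-1.19, SE 0.32, limma adjusted p = 0.18), and nucleoredoxin Nxn changed by -0.56 (0.26). Among 18 heat shock and unfolded protein genes of 19, 13 were below 0, with a median of -0.20, which was -0.03 on KO 5000 lux replicate 1 and -0.29 on replicate 2. In limma 0 passed and 3 had an unadjusted p below 0.05. The inducible chaperone Hspa1a stood 0.51 higher at 5000 lux, and the endoplasmic reticulum chaperone Hspa5 0.33 lower, neither passing (limma adjusted p = 0.26 and 0.36).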

How the data were processed

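Total retinal RNA was hybridised to 16 Affymetrix arrays. The authors deposited GCRMA intensities on a linear scale, per the submitters' processing notes, which name no version of it. Log2 of these intensities was taken here without further scaling, and signal over background and the number of arrays limit the precision. Of 45037 probe sets, 34945 carry 1 gene symbol in the platform annotation, 932 several and 9160 none; only those with 1 symbol were named. Probe sets above log2 4 (intensity 16) on at least 2 arrays were tested with limma 3.58.1 in R 4.3.3 in a fit of 6 group means with empirical Bayes, and p-values were adjusted by Benjamini-Hochberg over all 23320. The procedure was run on simulated data. These had the same spread on every array, with changes planted only where the mean lay above log2 6. That run thus does not bear on uneven arrays or dim probe sets. Values under log2 4 were raised to 4 for folds given as "at least".

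Genes named are those with a probe set that passed, Nxnl1, Nxnl2, cell type markers and, within a list, up to 4 members of lowest p. Members and lists were chosen with earlier results of these data known. Alternatives were other filters, normalizations, variance models and samples in the fit, a replicate block and each array left out. The titles link same-numbered arrays by number alone. The difference of replicate 1 minus replicate 2 at KO 5000 lux correlated at 0.229 with that at KO 2500 lux. The same correlation in WT was 0.0815. Whether same-numbered arrays were handled together is not known. Promoters come from RefSeq GRCm38.p6.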

Additional observations from a re-analysis of the deposited data

Results flagged for a closer look

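For Tnfrsf12a, the TWEAK receptor, 1 of its 2 probe sets changed differently across the dose step in the genotypes: by -1.42 in KO and 0.45 in WT, a difference of -1.87 (limma adjusted p = 0.039). For Ednrb, the endothelin receptor, the dimmest probe set changed by -2.14 in KO and 0.65 in WT, a difference of -2.79 (limma adjusted p = 0.039). This probe set entered the test only through the KO 2500 lux arrays, and the brighter Ednrb probe sets did not pass. The test of the difference between genotypes drew attention to both, and neither cause was tested.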

How the results depend on the processing

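The KO dose step gave 18 probe sets, and 43 with no filter, 10 with a filter at log2 6, 32 with arrays centred on the median, 0 in a fit to its 5 arrays alone and 1 with array weights. Leaving out 1 array gave 0 to 103. The WT dose step gave 0, 2 with no filter, and 0 to 30 with 1 array left out. The interaction gave 2, against 1 with no filter, with a filter at log2 6 and with quantile normalization, 0 with the comparison's groups alone and with array weights, and 0 to 28 with 1 array left out. With 1 array left out, list medians ran from -0.77 to -0.57 (glial), -0.93 to -0.75 (interferon), 0.31 to 0.39 (rod), 0.27 to 0.71 (cone) and 0.30 to 0.34 (shared). With the replicate number as a block, 15 probe sets passed in the KO step and 1 in the interaction. The titles link replicates by number alone, so this is no paired test. Of the 21 settings 15 refitted the KO step, and 0 of the probe sets followed there reversed direction. For the 18, whose groups did not overlap, leaving out 1 array could not have reversed it. In turn, 0 of the 18 probe sets passed in every setting that tested them. Array number and dim signal under log2 4 limit the rest, and the causes of these shifts were not tested.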
